A study of Homo sapiens with 2 samples.

Results

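Coding sequence peaks of V5-tagged RRN3 were examined, with the genes POLQ and SUMO3 left out. A peak was taken where its midpoint lay in a coding segment of a GENCODE release 44 protein-coding gene on the same strand and in no microRNA, snoRNA or scaRNA gene. The rule found 471 of the 7793 deposited peaks, or 6.04% of the list. The list used here held peaks on chromosomes 1 to 6 and 10 to 22, and chromosomes 7, 8, 9, X and Y and the mitochondrial genome were not analysed here. The 471 peaks lay on 18 of these 19 chromosomes and in 288 genes, and touching peaks joined into 300 sites. For comparison, 4537 peaks had their midpoint in introns of protein-coding genes, 206 in 3′ UTRs, 167 in 5′ UTRs and 174 in the coding sequence of POLQ and SUMO3.

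The peaks came from PAR-CLIP, in which cells take up 4-thiouridine, proteins are cross-linked to RNA by ultraviolet light, and the RNA held by 1 protein is recovered and sequenced. The cells were SK-OV-3, an ovarian carcinoma line, made to express RRN3 with an N-terminal V5 tag from a stably integrated lentiviral EF1a vector. They received 100 μM 4-thiouridine for 14 h, and the anti-V5 immunoprecipitate was set against an input kept from the cleared lysate. There was 1 library of each kind, so no value has a replicate error, and each peak carries a single fold enrichment and a single p-value for the pair of libraries. The number of reads behind a peak and the RNA level of its gene are not known here.

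RRN3 is the initiation factor that brings RNA polymerase I to the ribosomal RNA genes. The study used these libraries to ask which messenger RNAs the tagged protein contacts. The coding sequence is the stretch of a spliced mRNA that ribosomes translate, and it is cut into exons in the gene, so a stretch of mRNA that crosses an exon junction appears in the genome as pieces on both sides of an intron.

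The sequences at such junctions are shown first, because the clearest pattern among the coding sequence sites lay there. Each line gives GRCh38 sequence on the strand of the gene, 5′ to 3′, with up to 10 bases before an exon junction in lower case and up to 20 bases after it in capitals. The first group holds 3 ribosomal protein genes, SERF2 and PFDN5, and the second holds 3 of the shorter chains.
RPS18: tgcagccatgTCTCTAGTGATCCCTGAAAA
RPS19: aggccgcacgATGCCTGGAGTTACTGTAAA
RPL19: cagccatgagTATGCTCAGGCTTCAGAAGA
SERF2: gccatgacccGCGGTAACCAGCGTGAGCTC
PFDN5: gctggaccagGAAGTGGAGTTCTTGTCCAC
MOV10L1: ttcgaCTGTGGCGAGGGGG
NLRP4: tctacGTCGGATTACAGCCTCA
DVL1: cttcggGGTGGTGAAGGAGGAG
In RPS18, RPL19 and SERF2 the first exon ended 3, 5 and 7 bases into the coding sequence, so the start codon stands in the lower-case part. In RPS19 the coding sequence began with the first base after the junction.

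In 17 genes, a site that met the rule ended within 1 base of an exon border while another site began within 1 base of the border of the next exon of an annotated transcript. Such pieces are called a junction chain here. The chains held 28 of the 300 sites, and in 7 genes a piece placed in a UTR completed the chain. In 7 genes the chain came to over 100 exon bases, among them 113 in RPS18, 112 in RPLP0, RPL19, RPS19 and SERF2, and 109 in PFDN5. All 7 began at the first exon, between 0 and 2 bases from an annotated transcript start of the gene. RPS18 and RPS19 encode proteins of the small ribosomal subunit, RPL19 and RPLP0 encode proteins of the large subunit, and PFDN5 encodes a subunit of prefoldin, a chaperone that delivers new chains to the chaperonin.

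The other 10 chains joined to between 13 and 22 exon bases. They lay in NLRP4 and DVL1 (22 bases each), MOV10L1 (19), ESYT1 and TUBA4A (16), ACTN4 and EEF2K (15), CD44 and TTLL1 (14) and ACTN3 (13). Their 5′ ends were 11 bases or more from the nearest annotated transcript start. They spanned introns from 97 bases in ACTN3 to 66561 bases in ACTN4. Occurrences in the genome were counted for single sites and windows around them, not for the joined bases. How often such short pieces meet annotated borders by chance was not counted. Whether these 10 chains come from spliced mRNA of the named genes was therefore not tested. On the Ensembl canonical transcript, the ACTN4 pieces, of 5 and 10 bases, lay in exons 1 and 9 of 21. Those of MOV10L1 lay in exons 25 and 27 of 27. The chains of ACTN4 and MOV10L1 therefore follow junctions of other annotated transcripts. ACTN3 and ACTN4 encode alpha-actinins, which cross-link actin filaments, TUBA4A encodes an alpha-tubulin, and EEF2K encodes the kinase that phosphorylates elongation factor 2.

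**Figure D1:**
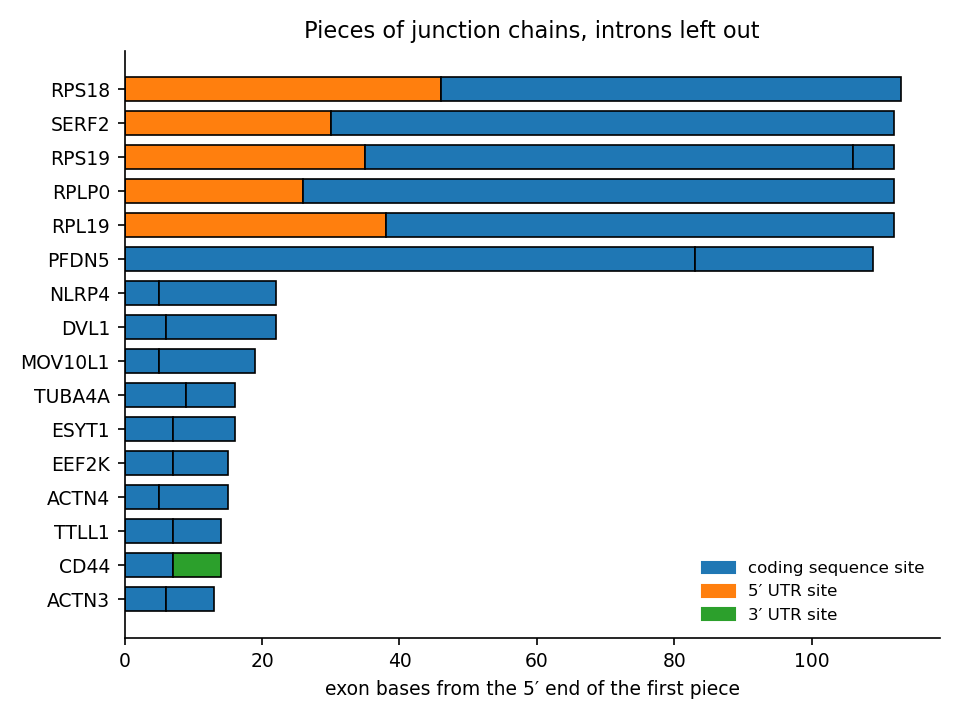
Exon bases of each piece of 16 of the 17 junction chains, drawn end to end from the 5′ end with introns left out. Black lines mark exon junctions and colours give the place of the midpoint of the piece. The upper 6 chains hold 109 to 113 bases and the lower 10 hold 13 to 22.

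Pieces of one chain had close p-values. In MOV10L1, which encodes a helicase of the germline piRNA pathway, both pieces were listed at 3.79e-265. In NLRP4 the pieces were listed at 7.40e-137 and 6.25e-137. The 3 pieces of RPS19 ranged from 8.22e-70 to 4.77e-65. They were 1.41e-09 and 1.30e-09 in RPS18, and 7.69e-11 and 2.38e-10 in RPLP0. The chains of RPL19 and PFDN5 stood near the weak end of the list, at 0.0198 to 0.0207 and 0.0193 to 0.0230, and that of SERF2 at 0.00370 to 0.00374.

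Counted over all sites, 17 site ends fell exactly on an internal exon border, 19 ran 1 base past one and 10 stopped 1 base short. At each distance from 2 to 5 bases on either side there were between 1 and 6 ends. The short sites lay at borders most often: 20 of the 32 sites of 5 to 11 bases (62.5%) had an end within 1 base of a border, against 15 of 220 sites of 12 to 20 bases (6.82%). Among the 15 sites of 30 bases or more, 8 did (53.3%).

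**Figure D2:**
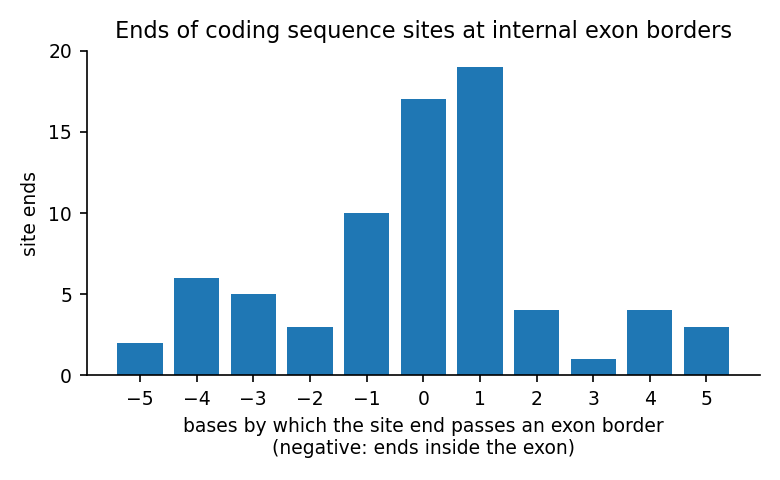
Number of ends of the 300 coding sequence sites (vertical axis) at each distance in bases from an internal exon border (horizontal axis, positive where the site runs past the exon). Ends gather between 1 base inside and 1 base past a border, with 10, 17 and 19 ends.

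The sites were short. Their median length was 17 bases, with a range of 5 to 100, and 198 of the 300 were between 13 and 19 bases long. The median was also 17 bases for sites in 5′ UTRs, 3′ UTRs and introns. Sites of 30 bases or more made up 5.00% of coding sequence sites (15 of 300; 95% Wilson interval 3.05 to 8.08), 8.0% of 5′ UTR sites (4.11 to 15), 0.80% of 3′ UTR sites (0.141 to 4.39) and 0.366% of intron sites (0.199 to 0.673). The intervals of coding sequence and introns do not overlap. These and all other intervals below cover counting error only and take each site as independent.

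The longest site, of 100 bases, lay in BRK1 on chromosome 3 from 10115693 to 10115792 on the plus strand. BRK1 encodes a small subunit of the WAVE complex, which promotes actin branching. The site began 18 bases from an annotated transcript start and crossed the start codon, and its p-value was 0.0212. Other long sites were those of RPLP0 (87 bases), PFDN5 (84) and SERF2 (82). In all, 6 sites held the first base of a start codon: those of BRK1, PFDN5, RPLP0, RPS19, SRA1 and ATG9A, the last at the start of an overlapping gene model. Of the 15 sites of 30 bases or more, 5 lay in ribosomal protein genes. So did 1 of the 32 sites of 5 to 11 bases, 0 of the 220 of 12 to 20 bases and 0 of the 33 of 21 to 29 bases.

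Longer sites did not have lower p-values throughout. The median p-value was 4.91e-16 for the 15 sites of 30 bases or more, 1.04e-61 for the 33 sites of 21 to 29 bases and 1.92e-29 for the 220 sites of 12 to 20 bases. Among the longest sites with low p-values were FANCM, a DNA repair translocase (45 bases, 3.26e-127), and NPTN, a cell adhesion protein (38 bases, 5.42e-131).

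**Figure D3:**
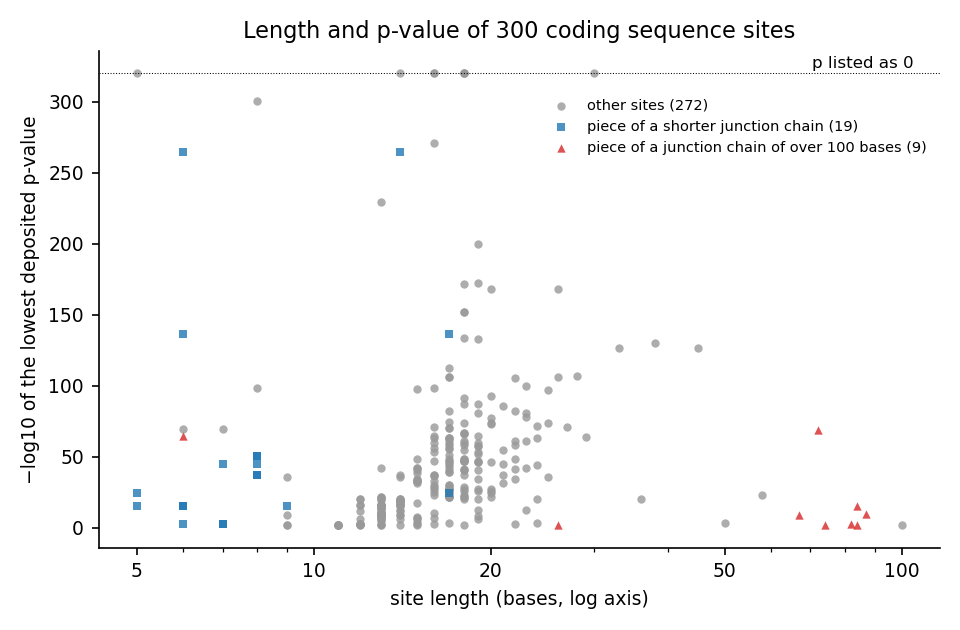
Each point is 1 of the 300 sites, placed by its length in bases (log axis) and by the −log10 of its lowest deposited p-value. Sites whose value is listed as 0 are drawn on the dotted line. Pieces of the long junction chains lie at the right, apart from 1 of 6 bases in RPS19 and 1 of 26 bases in PFDN5. They lie low on the vertical axis, with RPS19 the highest of them.

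The p-value was listed as 0 for 17 of the 471 peaks, and these fell in 8 sites. They lay in B2M, the light chain of MHC class I, ATP5F1A, a subunit of the mitochondrial ATP synthase, GORASP2, a Golgi stacking protein, MYO5C, an unconventional myosin, HASPIN, a histone kinase, SRCIN1, ADGRG6 and SIRPG. By eye, the sites in MYO5C and HASPIN resemble a small RNA library adapter and that in ADGRG6 resembles bacterial ribosomal RNA. No adapter or microbial sequence was compared with the sites, so whether these reads came from the named genes was not tested. The next lowest were ITGB7 (2.59e-301), TTC27 (7.50e-272) and MOV10L1 (3.79e-265). The site in SIRPG was 5 bases long and ended at an exon border, and no partner piece was found for it. The median p-value of the 471 peaks was 2.72e-42, beside 2.21e-47 over the whole list.

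Coding sequence peaks outside POLQ and SUMO3 were less often near the top of the list than peaks in general. Of the 471, 25 were found in the 779 top-ranked peaks by p-value, which are 10.0% of the whole list (25 of 471 is 5.31%, 95% Wilson interval 3.62 to 7.72). The share was 6.22% for intron peaks (5.55 to 6.96), 6.80% for 3′ UTR peaks (4.09 to 11.1) and 3.59% for 5′ UTR peaks (1.66 to 7.62). These intervals all overlap that of the 471 peaks. The coding sequence of POLQ and SUMO3, which the rule left out, had 171 of its 174 peaks there (98.3%). The whole list includes these peaks, so the lower share does not hold for coding sequence as a whole. Fold enrichment ran from 2.00 to 3.99 with a median of 2.97. The highest values, 3.99, were in ACTN3, ESYT3, PSMC3 and ZNF772, whose p-values ranged from 4.37e-67 to 0.0193. The relation of fold to p-value over all 471 peaks was not examined.

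Of the gene names given to the sites, 262 held 1 site, 17 held 2 and PRTN3 held 4. PRTN3 encodes proteinase 3, a serine protease best known from neutrophil granules. Its sites were spread over exons 3, 4 and 5 of 5, on the plus strand of chromosome 19 in GRCh38, and are printed with CpG dinucleotides in capitals.
PRTN3 site at chr19:843899-843924: gCGcctggtgaaCGtggtgctCGgag
PRTN3 site at chr19:843926-843940: ccacaaCGtgCGgac
PRTN3 site at chr19:846200-846227: gcaggaccagccagtgccccaCGgcacc
PRTN3 site at chr19:847893-847908: tcttcaCGCGggtagc
Their lowest p-values were 1.06e-168, 1.83e-32, 9.92e-108 and 3.58e-11 in that order. The first and second are 1 base apart, so they count as 2 sites only by that gap. No peak lay in the gene outside its coding sequence, and 30 bases around each of the 4 midpoints occurred once in the genome.

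Most of the other genes with 2 sites owed this to a junction: ESYT1, EEF2K, TUBA4A, DVL1, ACTN3, ACTN4, TTLL1, PFDN5, MOV10L1, NLRP4 and RPS19 held both sites of 1 chain. In LRRIQ1 the 2 sites were in exons 8 and 13 of 27 and had p-values of 3.66e-74 and 8.01e-46. In PPP4R3B the sites, of 6 and 7 bases in exons 2 and 1, had p-values of 2.09e-70 and 2.36e-70 and did not form a chain under the rule.

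The coding sequence sites were rich in CpG, the dinucleotide of C followed by G that is scarce in most of the human genome. Printed with CpG in capitals, the sites in 3 autophagy genes and 2 sites of lowest p-value read as follows, all in GRCh38.
SQSTM1, chr5:179821055-179821070, plus strand: gtcCGggaccctgCGa
ATG16L1, chr2:233251921-233251938, plus strand: ttCGaggagatcatcctg
TBC1D17, chr19:49884325-49884337, plus strand: tgaaCGatatcct
ATP5F1A, chr18:46087208-46087225, minus strand: cttacCGtcagatgtctc
B2M, chr15:44715680-44715697, plus strand: cagcccaagatagttaag
B2M has no CpG and each of the others has 1 or 2.

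Over the 300 sites, the observed number of CpG divided by the number expected from C and G content was 0.924 (95% interval 0.838 to 1.02). It was 0.583 (0.535 to 0.634) in the 20 bases on each side and 0.474 (0.469 to 0.480) in the whole coding sequence of the same genes. GC content differed little between sites and the bases beside them, at 56.3% and 55.3%. At least 1 CpG stood in 227 of 300 sites (75.7%, 70.5 to 80.2), against 134 of 300 windows of equal length directly downstream (44.7%, 39.1 to 50.3) and 134 of 300 directly upstream. Sites of 12 to 20 bases had a ratio of 0.973 (0.864 to 1.09), where the bases beside them had 0.569 (0.514 to 0.630). In sites of 30 bases or more the ratio was 0.752 (0.574 to 0.982) beside 0.615 (0.422 to 0.889), and the intervals overlap.

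The same contrast appeared outside coding sequence, so it was not a property of coding sequence sites alone. Sites in introns had a ratio of 0.808 (0.773 to 0.844) and the bases beside them 0.309 (0.294 to 0.325). In 3′ UTRs the ratios were 0.907 (0.742 to 1.11) and 0.370 (0.301 to 0.454). In 5′ UTRs the intervals overlapped, at 1.02 (0.898 to 1.16) and 0.876 (0.792 to 0.968).

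In PAR-CLIP the label is incorporated in place of uridine, so cross-links form at bases read as T in the genome. T made up 19.9% of the bases in coding sequence sites (95% Wilson interval 18.9 to 21), 22% of the bases beside them (21.3 to 22.8) and 21.5% of the whole coding sequence of these genes. Sites in introns had 28.9% and those in 3′ UTRs 28.1%. Of the 268 coding sequence sites of at least 12 bases, 4 held no T (1.49%, 0.582 to 3.77), against 12 of 268 windows directly downstream (4.48%, 2.58 to 7.66) and 5 directly upstream. Mismatches at T were not analysed here.

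Some sites on different chromosomes shared sequence. Of the 268 sites of at least 12 bases, 30 (11.2%, 95% Wilson interval 7.95 to 15.5) held a run of 12 bases that also stood in another site of the whole list. In windows of equal length directly downstream of all sites the count was 5 (1.87%, 0.799 to 4.29), and upstream it was 4. With runs of 14 bases, 10 of 222 sites shared one and 0 of 222 windows did on either side, which allows up to 1.70%. With runs of 10 bases the counts were close, at 116 of 274 sites and 109 and 98 windows. In 2 pairs both partners lay in coding sequence, and they are printed with the shared run in capitals.
GORASP2, chr2:170929356-170929371, plus strand: aGCGTCGAGATCCCGG
SPATA5L1, chr15:45402682-45402704, plus strand: gtcgggGCGTCGAGATCCCGGag
CACNG2, chr22:36702497-36702513, minus strand: agcCTGATGACCATAGC
PDS5A, chr4:39898775-39898793, minus strand: aCTGATGACCATAGCaagt
The pair in GORASP2 and SPATA5L1 shared 15 bases, and the p-values were listed as 0 and 7.92e-13. The pair in CACNG2, a calcium channel subunit, and PDS5A, a cohesin regulator, shared 14 bases with p-values of 2.00e-47 and 4.88e-35. Sites that shared a run of 12 had a median p-value of 5.14e-59, and those of the same minimum length that shared none had 3.20e-32.

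Among the 30 sites, those in MYO5C, BAZ2B and MDN1 resemble by eye the same library adapter. Those in SMARCA5 and TTC39A resemble ribosomal or transfer RNA, in part of other organisms. Neither resemblance was tested. The site in RSRC2 held a run from a human tRNA gene, counted below.

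Runs of 12 bases from human structural RNAs were about as frequent in the windows beside the sites as in the sites. Such a run from a tRNA gene stood in 4 of 268 sites, and in 1 downstream and 5 upstream windows. For ribosomal RNA genes the counts were 7, 9 and 9, and for the mitochondrial genome they were 6, 3 and 4. With runs of 14 bases, tRNA genes gave 1 of 222 sites, RSRC2, beside 0 downstream and 1 upstream windows. Only human sequence was searched.

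Many sites were too short to have a single place in the genome on their own. The sequence of 188 of the 300 sites (62.7%, 57.1 to 67.9) occurred once in the genome on either strand. The share was 187 of 198 (94.4%) for sites of at least 15 bases and 296 of 300 (98.7%) for the 30 bases around each midpoint. A window of 30 bases holds bases outside every shorter site, so its single place does not show a single place for the reads. The 5 bases in SIRPG occurred 8279991 times and those of 1 site in ACTN4 5173515 times. The 4 sites whose 30 bases occurred more than once included those in RPL19, RPLP0 and RPS18, with 2, 3 and 3 places, and the other places included processed pseudogenes, intronless copies of the mRNA. Reads from these pseudogenes and from the parent gene could therefore not be told apart within such a window.

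Along the coding sequence the sites were spread widely. On the Ensembl canonical transcript of their gene, 289 sites could be placed, and the coding sequence was cut into 3 parts of equal length. The first part held 108 sites (37.4%, 95% Wilson interval 32.0 to 43.1), the middle part 96 (33.2%, 28.0 to 38.8) and the last part 85 (29.4%, 24.5 to 34.9). An even spread gives 33.3%, which lies within all 3 intervals. With 10 parts of equal length, the first held 50 sites and each of the others held between 19 and 31. The exon with the start codon held 56 sites (19.4%, 15.2 to 24.3), and it makes up 14.1% of the coding sequence of these genes on average.

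With a peak in coding sequence were 288 of 16700 protein-coding genes on the chromosomes of the list, or 1.72%. Their median coding length was 2067 bases, against 1269 bases for the other genes, so a gene with longer coding sequence was more often present. The share in each gene list is read against this 1.72%.

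Among cytosolic ribosomal protein genes, 5 of 72 held a site (6.94%, 95% Wilson interval 3.00 to 15.2), although their median coding length was 453 bases. Each of the 5, RPS19, RPLP0, RPS18 and RPL19 among them, held a long junction chain at the 5′ end of the mRNA. Of 61 genes listed as translation initiation and elongation factors, 2 held a site (3.28%). They were EIF5B, the factor that joins the ribosomal subunits (1.28e-42), and EEF2K, which encodes a kinase and not such a factor.

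Among autophagy genes, 4 of 53 held a site (7.55%, 2.97 to 17.9). The study picked some of these genes from the same peaks, so this count is not independent evidence. SQSTM1 encodes the cargo receptor p62, and its 16-base site in exon 1 of 8 had a p-value of 1.63e-71 and a fold of 3.77. ATG16L1 guides LC3 lipidation, and its 18-base site in exon 1 of 18 joined 2 peaks. These had 4.38e-67 and 2.80, and 3.93e-67 and 2.03. TBC1D17, a Rab GTPase-activating protein, had a 13-base site in exon 11 of 17 with 9.66e-10 and 2.38. ATG9A, a lipid scramblase of the autophagosome membrane, had a 22-base site in exon 11 of 16 with 0.00369 and 3.92.

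No site lay in the listed 13 RNA polymerase I genes, 21 ribosome biogenesis factors, 85 histones, 55 keratins, 53 clustered protocadherins, 73 splicing and hnRNP factors or 28 HOX genes. The lists are not complete, so this holds for the listed genes only. MDN1 and PELP1, which act in ribosome biogenesis, and DHX38, which acts in splicing, held sites and were not in these lists. The upper Wilson limits ran from 4.32% for histones to 22.8% for the polymerase I genes. RRN3 itself held no coding sequence site, nor did PABPC4, SAMD4A, COMMD3, BMI1 or EEF1A1. Zinc finger genes (5 of 482, 1.04%), solute carriers (5 of 319, 1.57%) and olfactory receptors (2 of 371, 0.539%) had shares whose intervals included 1.72%. Single sites among the smaller lists were in PCF11, a cleavage and polyadenylation factor (1 of 19 genes, 2.33e-152), DHX38, a splicing helicase, COL17A1 and RNF207. The 2 genes of 75 in the chaperone list were HSPA8 and DNAJC27, and PFDN5, which held sites, was not in that list.

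Markers of cell type gave 1 gene each. CDH1, an epithelial cadherin, was the 1 of 12 epithelial and ovarian carcinoma markers with a site (1.51e-33). In the list named blood and stroma markers it was ACTA1, 1 of 14 (1.26e-72), which encodes skeletal muscle actin and marks neither blood nor stroma. A peak is not an RNA level, so neither count checks the identity of the cells.

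Of the 288 genes, 73 held a peak outside coding sequence as well. For 12 of the 471 peaks the midpoint lay in the coding sequence of 2 genes, and for 73 it also lay in a gene on the other strand. At the border of the rule, the peaks closest to a coding end from the inside were in PDS5A and S100A12 (both 1 base inside, 4.88e-35 and 1.83e-06). The closest outside were in SLC25A16 (1 base, in an intron, 6.71e-133) and F2R (2 bases, in the 3′ UTR, 4.03e-22).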

How the data were processed

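The authors sequenced 1 immunoprecipitate and 1 input library and deposited a peak list, with each peak's position, length, strand, fold enrichment (a ratio of immunoprecipitate to input), p-value, false discovery rate and score. The deposited false discovery rate and score were 1 in every row and were not used. The submitters' processing notes name GRCh38. Aligner, peak caller and scaling are not given in the sources used here. End minus Start equalled Length in every row, so Start was read as counting from 0.

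Peaks were placed on GENCODE release 44 and GRCh38 with Python 3.11.15, pandas 2.3.3, numpy 2.4.6, pysam 0.24.0 and scipy 1.17.1. Touching peaks of 1 strand formed a site. tRNA and rRNA genes came from RefSeq. Observed over expected CpG was pooled over sites, with a Wilson interval on the CpG count. No test was run, because there is 1 library per condition. Placement, joining, composition and counts of occurrences were tested on simulated data.

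The members and gene lists were chosen with earlier results of these data known. Genes named were those with the most sites, lowest p-values, longest sites, most genomic copies, highest fold, lying nearest the coding border, in a gene list (up to 4 of lowest p), or of interest to the study. Junction chains, length classes and shared runs were examined after the data were seen, and genes in them are named for that reason. 1 gene of the lists is not reported here by name.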

Additional observations from a re-analysis of the deposited data

How the results depend on the processing

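The 471 peaks and 288 genes became 207 and 107 when the list was kept to its top-ranked 3896 by p-value, and 25 and 12 with its top-ranked 779. Joined into sites, the peaks numbered 300. Under the other placements (either strand, any overlap, the whole peak inside, canonical transcripts, small RNA genes kept, POLQ and SUMO3 kept, and, chosen after seeing the data, a midpoint 1 base later) the counts stayed within 438 to 645 peaks and 277 to 309 genes. The share of sites that occur once in the genome rose from 62.7% to 94.4% for sites of at least 15 bases, 97.3% for 20 bases around the midpoint and 98.7% for 30 bases. The share of genes with another peak outside coding sequence went from 25.3% to 19.8% when that peak had to lie more than 1 kb away. With the top-ranked 3896, the shares of gene lists were 1.39% for ribosomal proteins, 0.415% for zinc finger genes and 0 for translation factors, olfactory receptors and epithelial markers, beside 0.641% over all genes (107 of 16700), so 4 of the 5 ribosomal protein genes rest on weaker peaks. CpG over expected ranged from 0.861 to 0.942 and T from 19.7% to 20.9% over 6 alternatives each, 2 of them (sites outside junction chains and sites sharing no run) chosen after seeing the data. In all, 70 of 84 alternatives stayed inside the main interval, or within 1.5 times for counts. Of the 84, 40 concerned gene lists. A list with no site had to stay at 0 under its alternatives, so this tally overstates how stable the results are. No paired analysis was possible because there is 1 library per group. With no reads and no replicate, neither depth nor spread can be given for any site.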
